A study of Mus musculus with 18 samples.

Results

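The Cyp4 fatty acid omega-hydroxylases are described here in the liver of 18 mice. The 10 genes are Cyp4a10, Cyp4a12a, Cyp4a12b, Cyp4a14, Cyp4a31 and Cyp4a32 of the Cyp4a family, Cyp4f13, Cyp4f14 and Cyp4f15 of the Cyp4f family, and Cyp4v3, which belongs to the related Cyp4v family. They were taken by symbol out of 25266 genes listed, and all 10 had a mean of at least 0.5 RPKM (reads scaled by gene length and library depth) over the 18 mice, the limit for the 11090 genes that entered the tests. The family was selected from earlier results of these same mice, so the fold changes and calls of its members are a description and carry no p-value. FF mice carry floxed alleles of Ppp6r3 (ppp6r3 fl/fl), which encodes the phosphatase subunit SAPS3, and no Cre. LKO mice came from crossing FF mice with C57BL/6 Alb-Cre mice, in which the albumin promoter drives Cre in hepatocytes. Floxed alleles are common to all groups, and only LKO mice carry Cre, so effects of Cre and of the deletion cannot be told apart. All were male mice, 8 weeks old when the diets began. They received for 16 weeks either a control diet with 10 kcal% fat (CD; 4 FF and 4 LKO mice) or a high fat diet with 32.5 kcal% fat (HFD; 5 FF and 5 LKO mice).

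Enzymes of the Cyp4 family are cytochrome P450 monooxygenases of the endoplasmic reticulum that place a hydroxyl group on the terminal (omega) carbon of fatty acids. Alcohol and aldehyde dehydrogenases then turn the product into a dicarboxylic acid, which peroxisomes shorten. Cyp4a10 and Cyp4a14 are classical targets of the nuclear receptor PPARα in mouse liver, Cyp4a12a is a male-biased enzyme that makes a hydroxylated product of arachidonic acid, and Cyp4f14 inactivates leukotriene B4.

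The 6 Cyp4a genes lie in one cluster on chromosome 4 (GRCm38, from 115299046 to 115621602), the 3 Cyp4f genes on chromosome 17 (from 32685627 to 32947402) and Cyp4v3 on chromosome 8 (from 45304944 to 45333216). All P450 enzymes carry a stretch around the cysteine that binds the heme iron. Its coding sequence is shown for each gene because it shows at a glance how close the copies are. Each 30-base stretch was read from the GENCODE transcript with the longest coding sequence on the gene's own strand, is interrupted by an intron in the genome, and has in capitals the bases that differ from Cyp4a10.
Cyp4a10 (chr4:115529502-115532543, + strand): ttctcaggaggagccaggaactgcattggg
Cyp4a12a (chr4:115328986-115331846, + strand): ttctcaggaggagcAaggaactgcattggg
Cyp4a12b (chr4:115435240-115438069, + strand): ttctcaggaggagcAaggaactgcattggg
Cyp4a14 (chr4:115487299-115489805, - strand): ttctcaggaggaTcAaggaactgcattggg
Cyp4a31 (chr4:115574950-115577948, + strand): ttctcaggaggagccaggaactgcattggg
Cyp4a32 (chr4:115614880-115621446, + strand): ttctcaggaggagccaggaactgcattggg
Cyp4f13 (chr17:32924942-32925340, - strand): ttctcagCGggGAccaggaactgcatAggA
Cyp4f14 (chr17:32905666-32906065, - strand): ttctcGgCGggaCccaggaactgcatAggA
Cyp4f15 (chr17:32702398-32702801, + strand): ttctcCgCTggGCccaggaactgcatAggA
Cyp4v3 (chr8:45307107-45308407, - strand): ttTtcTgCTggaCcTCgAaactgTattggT

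Cyp4a31 and Cyp4a32 were identical to Cyp4a10 in this stretch, the Cyp4a12 pair and Cyp4a14 differed at 1 and 2 bases, and the Cyp4f genes and Cyp4v3 at 6 to 10. Over the whole coding sequence, Cyp4a12a and Cyp4a12b were 98.5% identical (23 differences in 1524 bases), Cyp4a10 and Cyp4a32 were 97.2% identical, and Cyp4a10 and Cyp4a31 96.6%. The 60-base window of Cyp4a12a and Cyp4a12b below holds 4 of the 23 differences, in capitals, and lies within an exon in both genes.
Cyp4a12a (chr4:115326645-115326704, + strand): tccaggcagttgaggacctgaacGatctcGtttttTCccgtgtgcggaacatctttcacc
Cyp4a12b (chr4:115432898-115432957, + strand): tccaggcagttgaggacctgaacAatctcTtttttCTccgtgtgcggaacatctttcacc

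Of all 50-base windows of the Cyp4a12a transcript, 48.9% occur unchanged in Cyp4a12b. For Cyp4a10 the share found in Cyp4a31 or Cyp4a32 was 30.5%, for Cyp4a32 the share found in another member was 46.8% and for Cyp4a31 20.1%. It was 2.0% at most in the Cyp4f genes and 0.00% in Cyp4a14 and Cyp4v3. How reads matching several genes were assigned is not given in the sources used here, so the split within the Cyp4a12 pair and within Cyp4a10, Cyp4a31 and Cyp4a32 is uncertain, and their sums are given beside it.

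Depth was 23.4 to 36.9 M reads per mouse. From the annotated transcript lengths, Cyp4a14 rested on at most about 28774 reads in a mouse, whereas the lowest values of Cyp4a31 and Cyp4a12b rested on about 17 and 37. Ppp6r3 was between 7.55 and 10.98 RPKM in FF mice and between 3.88 and 4.87 RPKM in LKO mice, with no overlap. The source of the Ppp6r3 reads that remained in LKO livers was not tested. Hepatocyte markers (Alb, Apoa1, Ttr, Cps1 and Cyp2e1) summed to 33576 to 50544 RPKM over the mice, and the 5 markers of renal proximal tubule, another tissue rich in Cyp4a enzymes, to at most 0.441 RPKM. In whole liver, fewer cells of a type and less RNA per cell cannot be told apart.

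On CD, FF livers expressed mainly Cyp4v3, Cyp4a12a and Cyp4f14. Since RPKM is scaled by gene length, levels can be compared between genes, but only approximately. The annotation used is not given, and the split of reads among the close Cyp4a copies is uncertain. Mean levels in FF CD mice were 147 RPKM for Cyp4v3, 99.4 for Cyp4a12a, 77 for Cyp4f14, 40.4 for Cyp4a12b, 34.9 for Cyp4f15, 22.2 for Cyp4f13, 21.9 for Cyp4a10, 9.89 for Cyp4a32, 5.18 for Cyp4a14 and 1.02 for Cyp4a31. The SD of Cyp4a12a was 39.0 RPKM, so its place next to Cyp4f14 (SD 15.4, n = 4 each) is within the spread. In FF HFD mice the order was led by Cyp4a14 at 266 ± 88.4 RPKM (SD, n = 5) and Cyp4a10 at 236 ± 27.9, which do not differ beyond their spread, and Cyp4a12b had become the lowest at 4.62 ± 3.95.

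**Figure D1:**
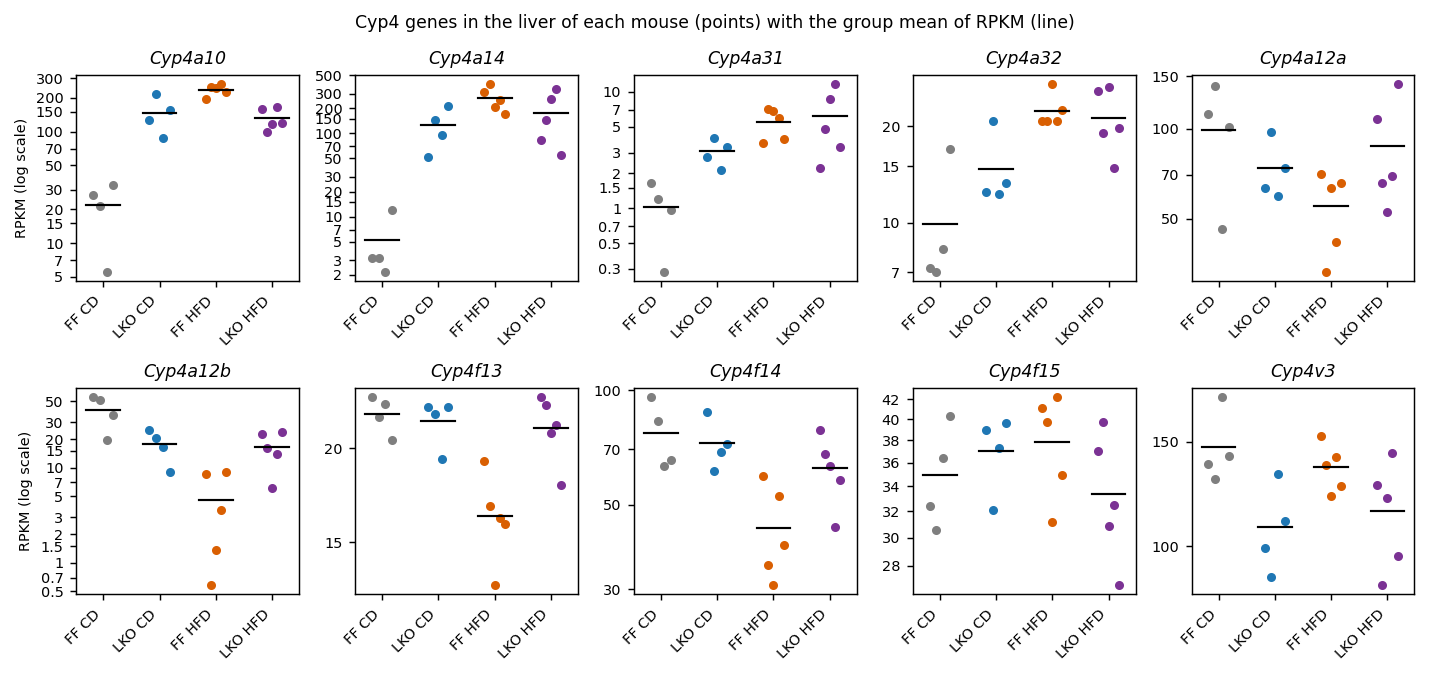
RPKM of the 10 Cyp4 genes (log axis, 1 panel per gene) in each mouse of the 4 groups, with a line at the group mean. FF CD mice stand below the other 3 groups for Cyp4a10 and Cyp4a14, while FF HFD mice are lowest for Cyp4a12b, where their highest mouse, at 9.02 RPKM, overlaps with both LKO groups.

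Among members that HFD raised in FF mice, Cyp4a14 had the widest range. Its level was 3.18, 3.22, 2.19 and 12.1 RPKM in FF CD mice and 312, 392, 206, 253 and 169 RPKM in FF HFD mice. LKO CD mice had 51.9, 146, 95.1 and 213 RPKM, and LKO HFD mice 84.3, 146, 257, 342 and 55.0. Every FF CD mouse was thus below every mouse of the other groups, and the LKO groups overlapped with each other. The ratio of the means was 51.4 between FF HFD and FF CD mice and 24.4 between LKO CD and FF CD mice. On the log2(RPKM + 1) scale the fold changes were 5.62 (SE 0.51) and 4.43 (SE 0.54), while HFD in LKO mice gave 0.36 (SE 0.51). FF CD mouse 4 stood apart from the other FF CD mice, and without it these values rose to 6.06 and 4.88.

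Cyp4a10 followed a similar order. It was at 27.1, 21.4, 5.55 and 33.3 RPKM in FF CD mice and at 194, 250, 244, 267 and 224 RPKM in FF HFD mice. In LKO CD mice it was 128, 218, 86.7 and 156 RPKM, and in LKO HFD mice 161, 98.1, 117, 165 and 119. Every LKO HFD mouse was below every FF HFD mouse and above every FF CD mouse. The log2 fold change was 3.60 (SE 0.35) for HFD in FF mice, 2.85 (SE 0.37) for LKO against FF mice under CD, -0.11 (SE 0.35) for HFD in LKO mice and -0.86 (SE 0.33) for LKO against FF mice under HFD.

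Cyp4a31 and Cyp4a32 are close copies of Cyp4a10 at lower levels. Cyp4a31 was 1.64, 1.19, 0.285 and 0.954 RPKM in FF CD mice and 3.61, 7.11, 6.79, 5.93 and 3.92 RPKM in FF HFD mice. It was 2.13 to 4.01 RPKM in LKO CD mice and 2.23 to 11.7 RPKM in LKO HFD mice, all above the FF CD mice. Its log2 fold change for HFD in FF mice was 1.69 (SE 0.32), which the added 1 RPKM reduces, as with an added 0.1 it was 2.46. Cyp4a32 was 7.23, 7.04, 8.29 and 17.0 RPKM in FF CD mice and 20.8, 20.8, 27.1, 20.8 and 22.4 RPKM in FF HFD mice, with a log2 fold change of 1.18 (SE 0.22). Its LKO mice were at 12.3 to 20.7 RPKM on CD and 14.9 to 26.6 on HFD. The RPKM of Cyp4a10, Cyp4a31 and Cyp4a32 were also summed. The split of shared reads among them still has some effect there, as their transcripts differ in length (2109, 2509 and 1530 bases). Any reads dropped for matching several genes would be missing from the sum too. The log2 fold change of the sum was 3.10 (SE 0.28) for HFD in FF mice, 2.36 (SE 0.29) for LKO against FF mice under CD and -0.74 (SE 0.26) for LKO against FF mice under HFD. Cyp4a10 made up 63.0% ± 16.4 (SD, n = 4) of this sum on CD and 89.4% ± 1.17 (SD, n = 5) on HFD, both in FF mice.

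Of the male-biased pair, Cyp4a12b was lower on HFD in FF mice. It was 55.1, 50.9, 19.7 and 35.8 RPKM in FF CD mice and 8.52, 0.587, 1.37, 3.61 and 9.02 RPKM in FF HFD mice. Cyp4a12b was 25.0, 20.4, 16.6 and 8.99 RPKM in LKO CD mice and 22.8, 16.1, 6.11, 14.0 and 23.5 RPKM in LKO HFD mice. The FF groups did not overlap, and 1 LKO HFD mouse (mouse 3) and 1 LKO CD mouse (mouse 4) lay within the range of FF HFD mice. The log2 fold change was -3.13 (SE 0.50) for HFD in FF mice, an 8.74-fold difference of the means, and 1.87 (SE 0.47) for LKO against FF mice under HFD.

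Cyp4a12a was 112, 139, 46.0 and 101 RPKM in FF CD mice and 70.8, 33.2, 63.1, 41.8 and 66.0 RPKM in FF HFD mice. It was 63.5, 97.7, 59.5 and 74.2 RPKM in LKO CD mice and 108, 65.9, 52.6, 69.4 and 141 RPKM in LKO HFD mice. All groups overlapped, and the log2 fold change for HFD in FF mice, -0.79 (SE 0.32), did not pass. It was -1.12 and passed without FF CD mouse 3, whose Cyp4a12a, Cyp4a12b and Cyp4a10 were each the lowest of the FF CD mice. The sum of both genes fell by 1.18 on the log2 scale (SE 0.32) in FF HFD mice and passed. For LKO against FF mice under HFD the sum was at 0.76 (SE 0.30) and did not pass. Cyp4a12b made up 28.98% ± 3.13 (SD, n = 4) of that sum in FF CD mice, 19.5% ± 7.33 (SD, n = 4) in LKO CD mice, 6.91% ± 4.79 (SD, n = 5) in FF HFD mice and 15.7% ± 3.51 (SD, n = 5) in LKO HFD mice.

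**Figure D2:**
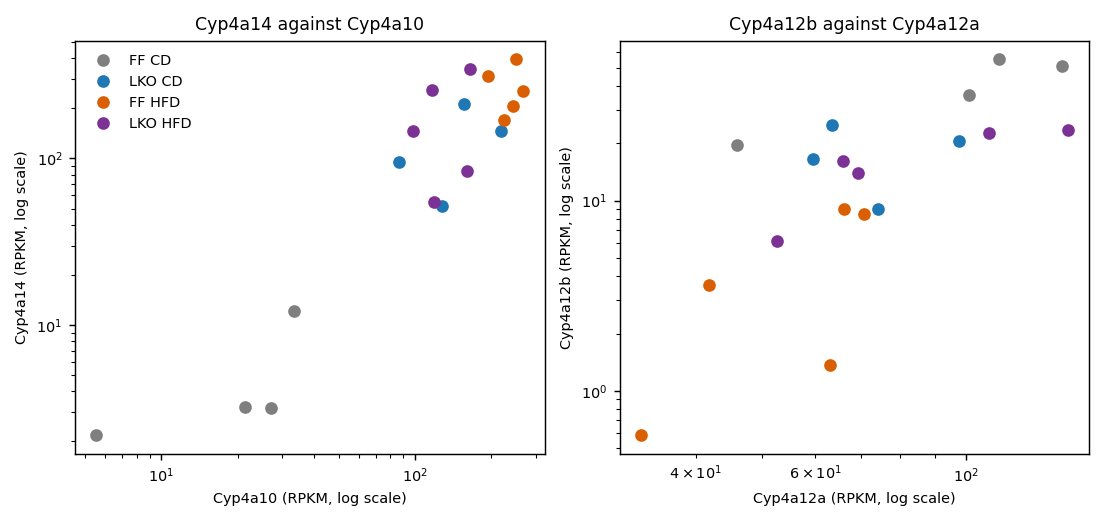
Level of Cyp4a14 against Cyp4a10 (left) and of Cyp4a12b against Cyp4a12a (right) in RPKM on log axes, 1 point per mouse, coloured by group. FF CD mice lie apart at the lower left for Cyp4a10 and Cyp4a14, and the FF HFD mice reach the lowest Cyp4a12b at Cyp4a12a levels between 33.2 and 70.8 RPKM.

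The Cyp4f genes and Cyp4v3 varied less. Cyp4f14 was 95.9, 83.0, 63.4 and 65.6 RPKM in FF CD mice and 59.3, 34.7, 30.8, 52.8 and 39.1 RPKM in FF HFD mice, with no overlap and a log2 fold change of -0.84 (SE 0.19). It was 61.2 to 87.6 RPKM in LKO CD mice and 43.7 to 78.8 in LKO HFD mice, which overlapped with each other. Cyp4f13, a related fatty acid and leukotriene hydroxylase, was 20.5 to 23.4 RPKM in FF CD mice, 13.2 to 19.2 in FF HFD mice and 17.9 to 23.4 in LKO HFD mice, and its log2 fold change for HFD in FF mice, -0.44 (SE 0.10), was smaller than 1.5-fold. Cyp4f15 lay between 26.7 and 42.2 RPKM in all mice, and its log2 fold changes in the 4 comparisons lay between -0.18 and 0.11. Cyp4v3, the mouse counterpart of human CYP4V2, was 130 to 178 RPKM in FF CD mice and 88.8 to 132 in LKO CD mice, with a log2 fold change of -0.45 (SE 0.15) that did not pass.

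A call required a change of more than 1.5-fold together with an adjusted p under 0.05 in the limma fit of all tested genes. For HFD in FF mice, 4 members were called higher (Cyp4a10, Cyp4a14, Cyp4a31, Cyp4a32) and 2 lower (Cyp4a12b, Cyp4f14), where 5.11% of all tested genes were called higher, 1.49% lower and 6.6% in all. The groups did not overlap in 7 members, against 18.3% of all tested genes. For HFD in LKO mice, 0 members were called (limma; 1 at an unadjusted p under 0.05) and 0 had groups without overlap, against 1.27% and 9.04% of all genes. LKO and FF mice under CD differed in 2 members (Cyp4a10 and Cyp4a14, both higher in LKO mice), against 0.225% of all genes, and groups were apart in 3 members (also Cyp4a31), against 5.07%. Under HFD, 1 member was called (Cyp4a12b, higher in LKO mice), against 2.07%, and 1 other, Cyp4a10, had groups without overlap, against 4.67%. These shares are given for comparison only, since the family was chosen for such differences. The median log2 fold change of the members was 0.00 for HFD in FF mice, beside 0.07 over all tested genes.

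**Figure D3:**
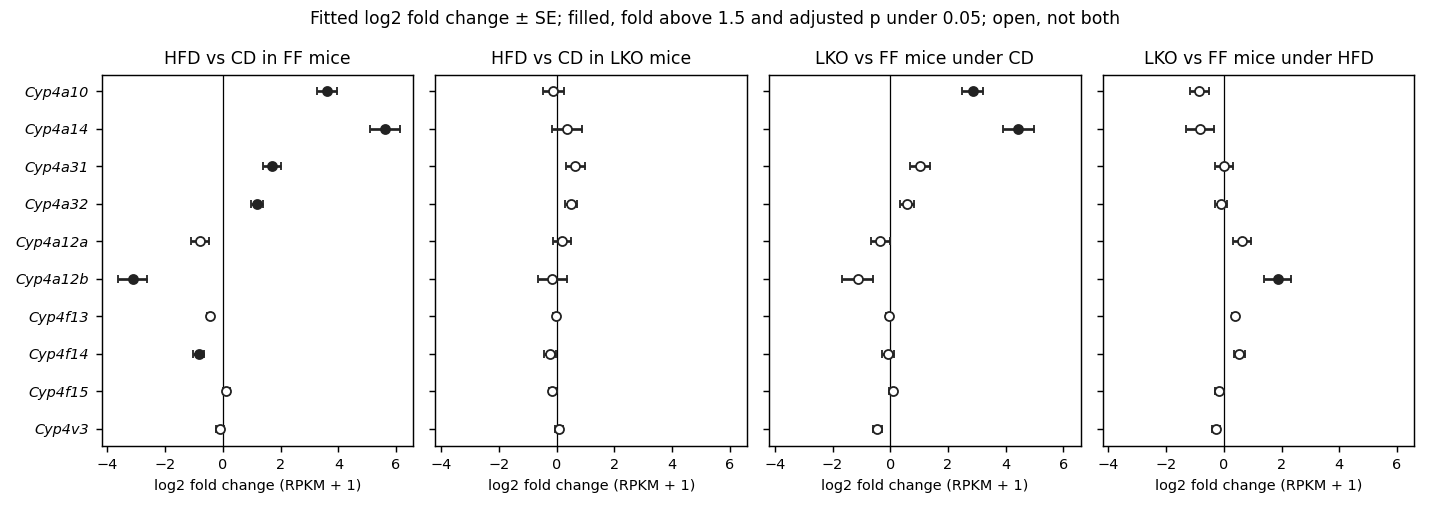
Fitted log2 fold change of each Cyp4 gene on the log2(RPKM + 1) scale with its SE, in 4 comparisons; filled points passed both limits and open points did not. In FF mice HFD gave the widest spread, from -3.13 for Cyp4a12b to 5.62 for Cyp4a14, while in LKO mice all 10 points lay between -0.23 and 0.65.

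The diet response itself was compared between genotypes as the response of LKO mice minus that of FF mice. It was -5.26 (SE 0.72) for Cyp4a14, -3.71 (SE 0.50) for Cyp4a10 and 2.99 (SE 0.71) for Cyp4a12b on the log2 scale, and these 3 members were called, against 2.44% of all genes. For Cyp4a14 and Cyp4a10 the LKO mice were already high on CD. Cyp4a12b was at -1.13 (SE 0.53) in LKO against FF mice under CD, which did not pass. Summed, Cyp4a12a and Cyp4a12b gave a difference of responses of 1.29 (SE 0.46), which did not pass. Without a filter on low values or without moderation of the variance, the Cyp4a12b call was lost. The contrasts share mice with those above and are not independent of them. The call of Cyp4a12b was lost without FF CD mouse 1 or 2, LKO CD mouse 2 or 4 or LKO HFD mouse 5, with values of 2.81, 2.85, 3.08, 2.72 and 2.84. The call of Cyp4a12b for LKO against FF mice under HFD was lost without FF HFD mouse 2, 3 or 4 (1.5, 1.64 and 1.88) or LKO HFD mouse 1, 2, 4 or 5 (1.72, 1.84, 1.89 and 1.71). In that comparison, Cyp4a10 was called at -0.86 without FF CD mouse 3 and Cyp4f14 at 0.66 without FF HFD mouse 1. The difference of the diet responses was also called for Cyp4a32, at -0.95, without FF CD mouse 4.

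The make-up of the Cyp4 transcripts also differed between the groups. The 10 genes summed to 459 ± 51.8 RPKM (SD, n = 4) in FF CD mice, 622 ± 105 (SD, n = 4) in LKO CD mice, 823 ± 93.1 (SD, n = 5) in FF HFD mice and 672 ± 121 (SD, n = 5) in LKO HFD mice. Cyp4a10 and Cyp4a14 together made up 2.02% to 9.70% of that sum in FF CD mice, 33.8% to 51.7% in LKO CD mice, 55.3% to 68.9% in FF HFD mice and 30.95% to 59.0% in LKO HFD mice. The FF CD mice were apart from all others, and the remaining groups formed overlapping ranges except LKO CD and FF HFD mice. In FF mice the Cyp4a12 pair made up 29.7% ± 9.28 (SD, n = 4) on CD and 7.44% ± 2.84 (SD, n = 5) on HFD.

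**Figure D4:**
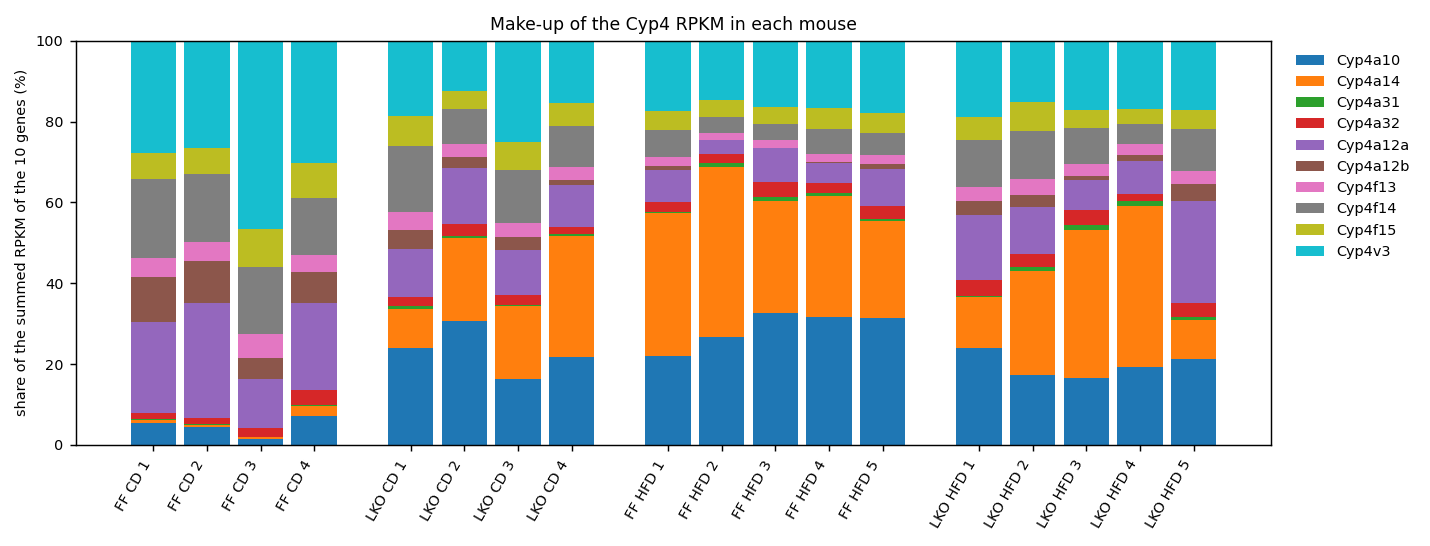
Share of each Cyp4 gene in the summed RPKM of the 10 genes (%), 1 stacked bar per mouse from 0 to 100, by group. Cyp4a10 and Cyp4a14 take 2.02% to 9.70% in FF CD mice and 55.3% to 68.9% in FF HFD mice.

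Within groups, 22 of the 45 pairs of members had a positive and 23 a negative correlation across the 18 mice, as deviations from the group mean on the log2 scale. Pearson's r was 0.68 for Cyp4a12a with Cyp4a12b, 0.63 for Cyp4a14 with Cyp4a31, 0.41 for Cyp4a10 with Cyp4a14 and -0.43 for Cyp4a12b with Cyp4a14. The most negative were Cyp4a12a with Cyp4f15 (-0.45) and with Cyp4v3 (-0.44). Among the other close copies, r was 0.45 for Cyp4a10 with Cyp4a31, 0.36 for Cyp4a10 with Cyp4a32 and -0.11 for Cyp4a31 with Cyp4a32. The part of shared sequence in these values was not tested. Over all 18 mice with the group differences kept, the 5 genes outside the family most like Cyp4a14 were Acadl (r = 0.94), Cyp2c38 (0.93), Acot3 (0.93), Mgst3 (0.92) and Acot1 (0.91). Those most like Cyp4f14 were Sult2a8 (r = 0.93), Pla1a (0.93), Gjb1 (0.91), Cyp27a1 (0.91) and Rgn (0.91). The closest to Cyp4a12a were less similar, with Bhlhe41 at 0.79, Ppan at 0.72, H2ac18 and Mrps18b at 0.68 and Gadd45a at 0.67. These correlations describe 18 libraries that share the same 4 groups.

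The other 13 Cyp4 genes in the files were low. Cyp4b1 and Cyp4f17 had means of 3.64 and 3.56 RPKM over all mice, and the other 11 were at most 0.453 and were not tested. Cyp4f17 was 2.47 to 3.19 RPKM in FF CD mice and 3.91 to 5.36 in FF HFD mice, a log2 fold change of 0.56 (SE 0.10, limma adjusted p = 0.000971), under 1.5-fold. It passed that limit without FF CD mouse 3 (0.62) or FF HFD mouse 3 (0.60). Cyp4b1 had 0.55 (SE 0.21, limma adjusted p = 0.0719).

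Genes that act with the Cyp4 enzymes were counted from lists, outside the family itself. These lists and those below were chosen with earlier results of these mice known. Their counts and adjusted p-values are thus a description and no independent support. For comparison, 6.6% of all tested genes were called for HFD in FF mice and 1.27% for HFD in LKO mice. LKO and FF mice differed in 0.225% under CD and 2.07% under HFD. Of 7 tested genes that supply electrons or heme to P450 enzymes, 0 were called in any comparison with limma, where at most 2 had an unadjusted p under 0.05. At these shares of all genes, 0 of 7 says little. The gene with the largest difference was Alas1, the first enzyme of heme synthesis, at 0.66 for HFD in FF mice (limma adjusted p = 0.197) and -0.89 for LKO against FF mice under HFD (limma adjusted p = 0.143). Of 9 dehydrogenases that can oxidise omega-hydroxy fatty acids, 2 rose on HFD in FF mice. Aldh3a2, the fatty aldehyde dehydrogenase, rose from 47.0 ± 11.5 RPKM (SD, n = 4) to 142 ± 21.2 (SD, n = 5), a log2 fold change of 1.59 (SE 0.18, limma adjusted p = 1.27e-05), and Aldh1a1 had 1.24 (limma adjusted p = 0.000158). Aldh3a2 was lower in LKO than in FF mice under HFD, at -0.77 (limma adjusted p = 0.0157, and 0.0520 without FF HFD mouse 2).

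Of 25 tested genes of peroxisomal oxidation, 11 rose and 1 (Nudt7) fell on HFD in FF mice. In LKO mice 0 of the 25 passed with limma, and 5 had an unadjusted p under 0.05. With 1.27% of all tested genes called there, 0 of 25 says little. The response of LKO mice minus that of FF mice was called lower in 9 and higher in 1 of the 25. On HFD in FF mice, the acyl-CoA thioesterase Acot3 rose by 3.45 (limma adjusted p = 2.14e-05), Pex11a, which acts in peroxisome division, by 1.84 (3.98e-06, limma adjusted p) and the carnitine acetyltransferase Crat by 1.75 (9.46e-05, limma adjusted p). Under CD, Acot3 (2.17, limma adjusted p = 0.0369) and the peroxisomal transporter Abcd2 (1.24, limma adjusted p = 0.0397) were higher in LKO than in FF mice. Both adjusted p-values were close to 0.05, and the calls held in only 11 and 9 of 18 fits with 1 mouse left out. That of Acot3 was lost without FF CD mouse 2, 3 or 4, LKO CD mouse 2 or 4 or FF HFD mouse 3 or 5 (limma adjusted p up to 0.178). That of Abcd2 was lost without FF CD mouse 1, 2 or 3, LKO CD mouse 1, 2 or 4, FF HFD mouse 3 or 5 or LKO HFD mouse 3 (limma adjusted p up to 0.192). Acot3 is part of a family of near-identical genes. Under HFD, Nudt7 was higher in LKO than in FF mice at 0.84 (limma adjusted p = 0.00776), and the lower genes included Pex11a (-0.86, limma adjusted p = 0.00747) and Acot4.

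Of 33 tested PPARα target genes outside the family, 25 rose and 0 fell on HFD in FF mice, with a median log2 fold change of 0.84 beside 0.07 over all genes. The 25 include Cpt1b, which passed the filter on low values only through its level in FF HFD mice. The lipid droplet protein Cidec (3.93, limma adjusted p = 9.94e-06), the fatty acid transporter Cd36 (3.76, 4.44e-06) and Vnn1 (2.80, 7.19e-06) had the largest rises. In LKO mice 2 of the 33 rose on HFD (Fabp4 and Slc22a5, named after their values were seen), and this count was 0 without LKO CD mouse 1, 2 or 3, FF HFD mouse 2 or LKO HFD mouse 3, and 1 without LKO HFD mouse 2 or 4. Between LKO and FF mice under CD, 0 passed with limma and 14 had an unadjusted p under 0.05, Cd36 being the largest at 1.42 (limma adjusted p = 0.176). Under HFD 6 were lower in LKO mice, including Cidec (-2.18, limma adjusted p = 0.00503) and Cd36 (-1.88, 0.00504). That count was 2 without FF HFD mouse 2, 3 or 4 or LKO HFD mouse 2 or 4, and 3 without FF HFD or LKO HFD mouse 5. Of 18 tested genes of PPARα and its partners, 2 rose on HFD in FF mice, Pparg by 1.41 (limma adjusted p = 0.000833) and Rxrg by 0.74 (limma adjusted p = 0.00254), and 1 was lower, Lpin1 at -0.88 (limma adjusted p = 0.0377), with a median over the list of -0.02. The call of Lpin1 was lost without any 1 FF CD mouse or FF HFD mouse 1, 3 or 5 (limma adjusted p up to 0.0914).

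Of 22 male-biased liver genes other than Cyp4a12a and Cyp4a12b, 19 fell and 0 rose on HFD in FF mice, led by Serpina1e (-5.91, limma adjusted p = 4.06e-07) and the steroid dehydrogenase Hsd3b5 (-5.86, 1.87e-07). This list too was chosen with earlier results of these mice known. Under HFD 12 of the 22 were higher in LKO than in FF mice. Under CD 5 were lower in LKO mice (Cyp7b1, Moxd1, Selenbp2, Serpina1e and Ugt2b38), with Selenbp2 at -2.73 (limma adjusted p = 0.00732), a call lost without moderation of the variance. This count was 2 without FF CD mouse 2 or 3 or LKO CD mouse 2 or 4, and 3 without FF CD mouse 1 or FF HFD mouse 5. The call of Serpina1e under CD (-2.46) held in 6 of 18 fits with 1 mouse left out and was lost without any 1 FF CD mouse, LKO CD mouse 2 or 4, FF HFD mouse 3, 4 or 5 or LKO HFD mouse 2, 3 or 5 (limma adjusted p up to 0.187). Moxd1 passed the filter on low values only through its level in FF CD mice. Several of these genes have near-identical copies. Of 23 listed female-biased genes, 11 passed the filter on low values, Cyp2b9 and Hao2 only through their level in FF HFD mice, so the counts describe the tested genes alone. Of these 11, 8 rose on HFD in FF mice. Under HFD, 5 (Cyp2a22, Cyp2a4, Cyp2b9, Fmo1 and Hao2) were lower in LKO than in FF mice, with Cyp2a4 at -4.04 (limma adjusted p = 3.92e-05). Both counts include Cyp2b9 and Hao2, whose place among the tested genes came from the same FF HFD mice. In the androgen, growth hormone and STAT5 list, 2 of 14 tested genes rose (Prlr and Stat5a) and 1 fell (Bcl6) on HFD in FF mice, the prolactin receptor Prlr rising by 1.14 (limma adjusted p = 0.000353). The call of Bcl6 (-1.02) was lost without FF CD mouse 2 or 3 or FF HFD mouse 2, 4 or 5 (limma adjusted p up to 0.123). Of 13 other P450 genes of eicosanoid metabolism, 3 rose (Cyp2c38, Cyp2c39 and Ephx1) and 1 fell, with Cyp2c38 at 2.30 (limma adjusted p = 4.4e-06) and Cyp2c54 at -1.37 (0.0152, limma adjusted p).

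Markers of other liver cells also moved with HFD in FF mice, and some of them in LKO mice. The 5 endothelial markers summed to 12.0 to 25.4 RPKM in FF CD mice and 31.8 to 50.3 in FF HFD mice, and 3 of 5 rose (Clec4g, Lyve1 and Pecam1), Clec4g not without FF CD mouse 2 or 3 (limma adjusted p up to 0.0747). The 5 Kupffer cell markers summed to 37.8 to 56.7 and 47.1 to 86.3 RPKM, and 2 of 5 passed the test (Adgre1 and Vsig4), a count that was 0 without FF CD mouse 3 or 4 or FF HFD mouse 2, 3 or 4 and 1 without FF CD mouse 2. The stellate cell markers summed to 66.4 to 93.5 and 81.8 to 120.5 RPKM, and 1 of 5 rose, the collagen gene Col1a1 at 1.16 (limma adjusted p = 0.00539). The neutrophil markers summed to 0.971 to 2.07 and 1.91 to 7.30 RPKM, and 1 of the 2 tested, S100a9, passed at 0.77 (limma adjusted p = 0.0133, and 0.0550 without FF CD mouse 2). HFD in LKO mice raised 1 of 5 Kupffer (Clec4f) and 1 of 2 tested neutrophil markers (S100a8). Neutrophil markers summed to 1.14 to 2.12 RPKM in LKO CD and 3.07 to 6.05 in LKO HFD mice. Clec4f failed without LKO CD mouse 1 or 3 or LKO HFD mouse 3 or 4. The neutrophil count was 0 without any 1 LKO CD mouse, FF HFD mouse 2 or LKO HFD mouse 2, 3 or 5. Of 5 endothelial markers 0 passed and 3 had an unadjusted p under 0.05 (limma). Under HFD, Col1a1 was lower in LKO than in FF mice at -1.15 (limma adjusted p = 0.0157, and 0.0507 without FF HFD mouse 2). None of these markers was at 0 in a whole group. Of 5 hepatocyte markers, 2 fell on HFD in FF mice, Cps1 (-1.24, limma adjusted p = 0.000157) and Apoa1 (-0.72, limma adjusted p = 0.00276), Apoa1 not under quantile normalization. The median log2 fold change of the 5 was -0.02. Their sum overlapped, at 33576 to 41175 RPKM in FF CD mice and 36305 to 45787 in FF HFD mice. The part of all these markers in the Cyp4 values was not tested. In LKO against FF mice under CD, where Cyp4a14 and Cyp4a10 were higher, 0 markers of hepatocytes, Kupffer, stellate or endothelial cells, cholangiocytes or neutrophils passed with limma, and 2 hepatocyte and 1 cholangiocyte marker had an unadjusted p under 0.05. With 0.225% of all tested genes called there, 0 calls among so few markers cannot tell whether the cell make-up differed.

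RefSeq promoters (GRCm38.p6, 250 bases before to 50 after the start) were at hand for 5 members, Cyp4a32, Cyp4f13, Cyp4f14, Cyp4f15 and Cyp4v3, in 8 entries. The PPAR response element, as 2 copies of AGGTCA in direct repeat with 1 base between them, was searched on both strands and occurred in 0 of the 8 and in 0.0396% of all 32851 promoters. So rare an exact match makes 0 of 8 uninformative, and the promoters of Cyp4a10 and Cyp4a14 were not at hand. The STAT motif TTCNNNGAA occurred in 1 of the 8, that of Cyp4f13, and in 8.30% of all promoters.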

How the data were processed

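Liver RNA of 18 mice was sequenced, per the labels both with a TruSeq Small RNA protocol and as standard RNA-seq. The authors aligned reads with HISAT2 2.0.4 (mm10) and used Partek, and deposited RPKM per gene. Counting, annotation, strand and multi-mapping rules are not given in the sources used here. Depth was recovered from the steps of low values of single-exon genes, where 10.1% to 18.9% of these genes lay at 1, 2 or 3 reads, and reads per member were estimated from annotated lengths, covering counting error only.

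Values were analysed as log2(RPKM + 1) with limma 3.58.1 in R 4.3.3 (1 coefficient per group, eBayes with trend, two-sided, Benjamini-Hochberg over the 11090 genes at or above 0.5 RPKM on average). Fold changes on this scale understate those of low genes. Calls needed 1.5-fold and an adjusted p under 0.05. The script was checked on simulated data. Members and lists were chosen with earlier results of these data known. Besides the members, Ppp6r3 and the other Cyp4 genes, up to 3 called genes per list with the largest change and the 5 genes most like Cyp4a14, Cyp4a12a and Cyp4f14 could be named, of which 1 is not reported here. The numbering of mice says nothing of litter, and p-values measure the spread between these mice. Coordinates and transcripts are from GENCODE vM21 (GRCm38), handled with Biopython 1.88. Alternatives were another pseudocount, filter, scaling or centring, fewer groups, no moderation, a block, adjusted p alone, near-identical genes summed and leaving out each mouse.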

Additional observations from a re-analysis of the deposited data

Results flagged for a closer look

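In 40 sets of 4 or 5 mice (10 genes in 4 groups), 5 values, in 4 mice, lay far from the others of their group by Dixon's criterion, where chance gives about 1 in 20 sets. FF CD mouse 4 had 12.1 RPKM of Cyp4a14 and 17.0 RPKM of Cyp4a32. LKO CD mouse 2 had 20.7 RPKM and FF HFD mouse 3 27.1 RPKM of Cyp4a32. LKO CD mouse 3 had 19.4 RPKM of Cyp4f13.

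The response to HFD differed between LKO and FF mice in 3 members. The difference, LKO minus FF on the log2 scale, was -3.71 for Cyp4a10, 2.99 for Cyp4a12b and -5.26 for Cyp4a14. The call of Cyp4a12b was lost without a filter or without moderation of the variance. Summed with Cyp4a12a, the difference was 1.29 and not called. The 3 members were chosen with these results known.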

How the results depend on the processing

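Of 1425 recomputed fold changes of members, 1421 moved by less than the spread between mice and 0 called values changed sign. The 4 others were those of Cyp4a31 with a pseudocount of 0.1 (2.46, 1.66 and -1.69) and Cyp4a10 in the difference of responses when summed with its copies (-3.10). Of 2377 values of other named genes, 22 moved by more. Many values of both sets could not move. Adjusted p alone, no moderation, fewer groups and another filter leave the fold change of a gene as it is. So does leaving out a mouse of a group that is not compared.

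With each mouse left out, members called ranged from 6 to 7 for HFD in FF mice, 0 to 0 in LKO mice, 2 to 2 for genotype under CD, 0 to 2 under HFD and 2 to 4 for the difference of responses. PPARα target genes called ranged from 23 to 28, 0 to 2, 0 to 1, 2 to 8 and 5 to 13.

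Members called between LKO and FF mice under HFD numbered 1, but 0 without a filter, without moderation and with copies summed, and 2 by adjusted p alone. Fitting only the groups compared also gave 1, then Cyp4a10 and not Cyp4a12b. PPARα genes called there numbered 2 in place of 6 without a filter or without moderation. For HFD in LKO mice they numbered 0 in place of 2 without a filter, centred, with only those groups or without moderation, and 1 after quantile normalization. Under CD quantile normalization gave 1 in place of 0. For the difference of responses they numbered 5 in place of 8 without a filter or moderation and 14 with equal sums. The cause was not tested.

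Deviations of same-numbered mice of different groups had a median r of 0.054 (-0.17 to 0.33 over 25 pairs). For differently numbered mice it was -0.012 (-0.35 to 0.39 over 96 pairs). Whether the numbers mark a pairing or batch cannot be told from this. With the replicate number as a block, members called were 7, 0, 2, 1 and 3, Cyp4a12a being added in FF mice. Genes called in all went from 732 to 789 for HFD in FF mice and from 141 to 166 in LKO mice. They went from 25 to 26 for genotype under CD, from 230 to 223 under HFD and from 271 to 294 for the difference of responses. The block gave 3 PPARα genes in place of 2 in LKO mice and 4 in place of 6 under HFD. Under scaling alternatives the median of all genes moved by at most 0.10.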
